A study of Caenorhabditis elegans with 2 samples.

Results

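CDC-48 is the AAA ATPase, known as VCP in mammals, that pulls ubiquitinated proteins out of membranes, complexes and chromatin so that they can be degraded or recycled. Caenorhabditis elegans has a pair of paralogous genes for it, cdc-48.1 and cdc-48.2. Its main cofactor is a dimer of UFD-1 and NPL-4 that recruits ubiquitinated substrates, encoded by ufd-1 and by the paralogs npl-4.1 and npl-4.2. These 5 genes, of 19973 annotated protein-coding genes, were chosen by name with earlier results of these data known, because cdc-48.1 lies beside the strongest peak of the series. Entries of the peak lists were taken where the summit lay within 5000 bp of an annotated transcription start of the gene. The lists hold peaks and background, so an entry need not be binding. The values that placed cdc-48.1 first are therefore given as a description, and nothing was tested.

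The series measured binding of ZAG-1, a zinc finger homeodomain factor known for its part in neuron differentiation, by chromatin immunoprecipitation and sequencing. Per the labels, whole L1 larvae of strain OP83 were used, which carry the unc-119(ed3) III allele and the insertion wgIs83 for eGFP-tagged zag-1, with both sexes pooled. There was 1 group of 2 biological replicates from separate biosamples, with no untreated or untagged group used here. The labels do not name the promoter of the transgene, and whole animals mix all cell types. Read depth is not stated in the labels or release notes. The pooled list and each replicate's list held 30000 entries, named as peaks and background, and the optimal list held 478 peaks, the same entries as pooled ranks 1 to 478. Signal is the authors' own value for an entry, of unstated formula, so it was compared within a list only, and rank 1 is the highest signal. No list had an entry within 5000 bp of a start of zag-1, while unc-119 had 5 pooled entries, the strongest at rank 2509.

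The cdc-48.1 peak was the entry of highest signal in all 4 ce11 lists. Its summit lay in intergenic sequence 155 bp upstream of the only annotated start of the gene (WBGene00007352, minus strand, chrII:10560036-10563407), at chrII:10563485-10563653. No annotated gene of any kind overlapped that entry. The cdc-48.2 gene (WBGene00008053, plus strand, chrII:8138496-8141230) had no optimal peak, and its strongest pooled entry ranked 9185, 1448 bp upstream, at chrII:8136876-8137219. The sequences within 100 bp of these 2 summits are shown first because these entries give the pooled ranks compared between the paralogs. Whether the sequences bear on that difference was not tested. They are WBcel235 sequence, printed 5′ to 3′ on the strand of the gene, and the summit is the middle base.

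cdc-48.1, rank 1, chrII:10563462-10563662: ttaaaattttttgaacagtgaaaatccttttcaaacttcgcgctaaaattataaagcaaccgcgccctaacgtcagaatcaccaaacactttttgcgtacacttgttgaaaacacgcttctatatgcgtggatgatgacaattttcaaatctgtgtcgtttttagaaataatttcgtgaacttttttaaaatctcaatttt
cdc-48.2, rank 9185, chrII:8136948-8137148: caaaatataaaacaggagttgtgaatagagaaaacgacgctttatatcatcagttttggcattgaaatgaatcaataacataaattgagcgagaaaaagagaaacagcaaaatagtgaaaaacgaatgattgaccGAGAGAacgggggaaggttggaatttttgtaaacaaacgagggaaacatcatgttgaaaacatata

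Capitals mark any of 7 words searched on both strands. GAGAGA is a repeat that was frequent at optimal peaks. So were CGTCTC and GACGCA. The word CAGGTA is a form of the E-box known for ZEB-class factors. CAGGTG is the other such form. CAGCTG is an E-box of another kind. The last word, TTTTTTTT, is a run of T. The words were chosen with earlier results of these data known. GACGCA and the reverse complement of CGTCTC can overlap each other, and repeats of GAGAGA and TTTTTTTT overlap themselves. The cdc-48.1 window held none of the 7 words, and so has no capitals. The same was so for 114 of the 478 optimal windows (23.8%), for 5 of the 20 windows of highest signal and for 50.2% of all pooled windows. The cdc-48.2 window held GAGAGA once, from 35 to 40 bp downstream of its summit. GAGAGA occurred in 49.4% of optimal windows and 12.9% of pooled windows. A match is a description of the letters, and its absence says nothing of the factor.

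The cdc-48.1 summit window was also poor in GC. Its GC content was 32.3%, beside a mean of 43.3% (SD 6.61, n = 478) over optimal windows and 33.1% (SD 6.50, n = 30000) over pooled windows. Only 26 optimal windows (5.44%) were at or below that value. Among the 20 windows of highest signal, GC content had a median of 40.3% and ranged from 32.3% at cdc-48.1 to 56.7%, so the strongest peak had the lowest GC content of these 20. The cdc-48.2 window was at 33.3%, close to that of its paralog. The plot of GC content at summits sets all 14 pooled entries of the 5 genes against both distributions.

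**Figure D1:**
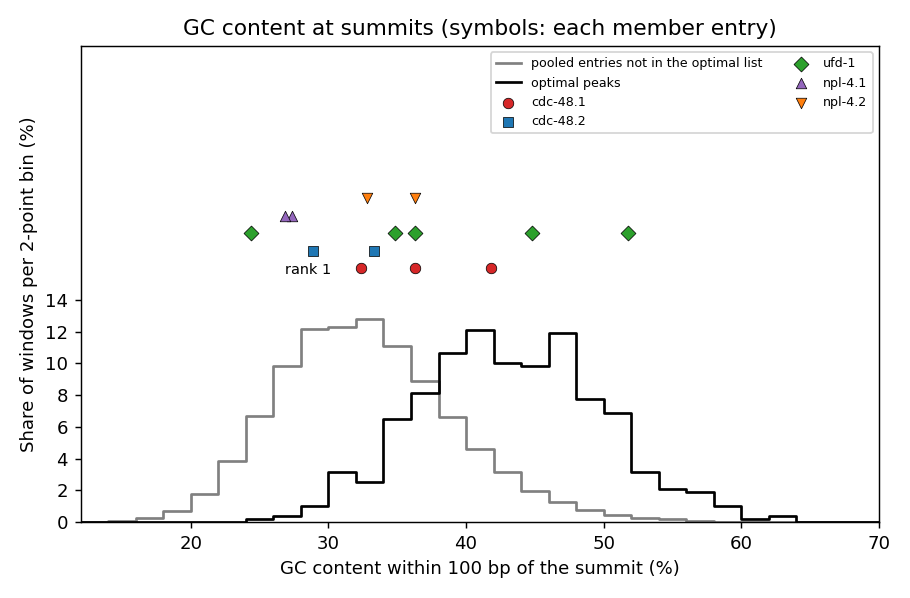
GC content within 100 bp of the summit (x axis, %) as the share of windows per bin of 2 points (y axis, %), for pooled entries outside the optimal list (grey line) and for optimal peaks (black line); symbols above the lines mark the pooled entries of each gene at arbitrary height. The rank 1 peak of cdc-48.1 sits at 32.3%, near the middle of the grey line and in the lower part of the black one.

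In the pooled list the cdc-48.1 peak had a signal of 179.6, which was 1.28 times the 140.5 of the entry at rank 2. In replicate 1 its signal was 61.8, 1.21 times the entry at rank 2 (51.1). In replicate 2 it was 115.3, also 1.21 times the entry at rank 2 (95.0). Both replicates therefore placed it first by a like margin, and the −log10 q placed it first in each list too. The replicate summits lay 165 bp and 155 bp upstream of the start, 10 bp apart. On ce10, where no gene was placed, the highest pooled entry also lay on chromosome II with a signal of 180.7, beside 138.7 at rank 2.

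The width of this entry differed between the lists. It was 169 bp in the pooled list, where all but 3 entries had the usual 344 bp, and it reached from 78 to 246 bp upstream of the start. In replicate 2 it was 146 bp, the only entry of that list without the usual 376 bp. In replicate 1 it had the usual width of 344 bp, and it reached 7 bp past the start into the gene. A fixed width says nothing about the extent of binding, and the labels and release notes do not say why some entries are narrower. The other narrow pooled entries were the peaks at rpl-3 (98 bp, rank 3) and ekl-4 (88 bp, rank 5).

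Upstream of cdc-48.1 the next protein-coding gene was C06A1.6, on the same strand, with a gap of 704 bp between the gene models. The summit stood 550 bp from C06A1.6 and 155 bp from the start of cdc-48.1, inside that gap. The start codon of cdc-48.1 lay 17 bp downstream of the annotated start. Starts of worm genes are often trimmed by trans-splicing, which joins a spliced leader to the transcript, so an annotated start need not be the site where transcription begins.

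The peaks most like that of cdc-48.1 by rank were those nearest to let-70, ekl-4, rpl-3 and ZK1248.17. Likeness was the sum of absolute differences of log10 rank in the pooled list and both replicates, over the 467 optimal peaks with an overlapping entry in each. Because cdc-48.1 was first in each list, this measure picks the other peaks of high rank by construction and compares no other trait. let-70, a ubiquitin-conjugating enzyme gene, had ranks of 2, 4 and 3 in the pooled list, replicate 1 and replicate 2 (sum 1.38). ekl-4 had ranks of 5, 3 and 5 (sum 1.88). rpl-3, a ribosomal protein gene, had 3, 9 and 4 (sum 2.03), and ZK1248.17 had 4, 25 and 2 (sum 2.30). Of these, ekl-4 and rpl-3 had summits within 500 bp of a start, at 171 and 266 bp, while those of let-70 and ZK1248.17 were 740 and 704 bp away.

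Around cdc-48.2 no pooled entry lay within 1000 bp of the start. The 1577 bp between its start and that of its divergent neighbour ctns-1, a cystinosin gene, held the entry at rank 9185, whose signal was 11.9. That summit was 1448 bp from cdc-48.2 and 130 bp from ctns-1, so ctns-1 was the nearer gene. The same place was entered in both replicates, at rank 22080 in replicate 1 (signal 4.02) and rank 10057 in replicate 2 (signal 8.63), with summits 1 bp apart. The other pooled entry, at rank 14115 and 4550 bp upstream (signal 10.4), lay in a non-coding exon or untranslated part of ulp-4, a SUMO protease gene. An exon of the non-coding RNA gene C41C4.20 also covered the summit of this entry. The entry overlapped an entry of replicate 2 at rank 25960 but none of replicate 1.

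Closer to the start of cdc-48.2 there was an entry in replicate 1 alone. Its summit lay 104 bp downstream, in an intron of the gene, at rank 7838 with a signal of 6.07. No entry of replicate 2 and no pooled entry overlapped it. The strongest entry of replicate 1 in the window was another, at rank 4567 (signal 7.08), 3243 bp upstream in a coding exon of ctns-1 and absent from the other lists. Replicate 1 held 6 entries around cdc-48.2 and replicate 2 held 3.

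Side by side, the strongest entries of the paralogs were at ranks 1 and 9185 in the pooled list, 1 and 4567 in replicate 1, and 1 and 10057 in replicate 2. With a window of 10000 bp the pooled ranks were 1 and 2299. Their pooled signals were 179.6 and 11.9, and the lowest signal of an optimal peak was 29.6. The pair was compared because of this difference, so it was not tested. The annotated coding sequences give proteins of 809 and 810 residues, identical at 720 of 802 aligned positions (89.8%). The coding sequences share 0 stretches of 36 bases, and none of the 36-base stretches of the 2 summit entries occurred anywhere else on the nuclear chromosomes. Read length is not stated, and 36 bases were taken as a short read.

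**Figure D2:**
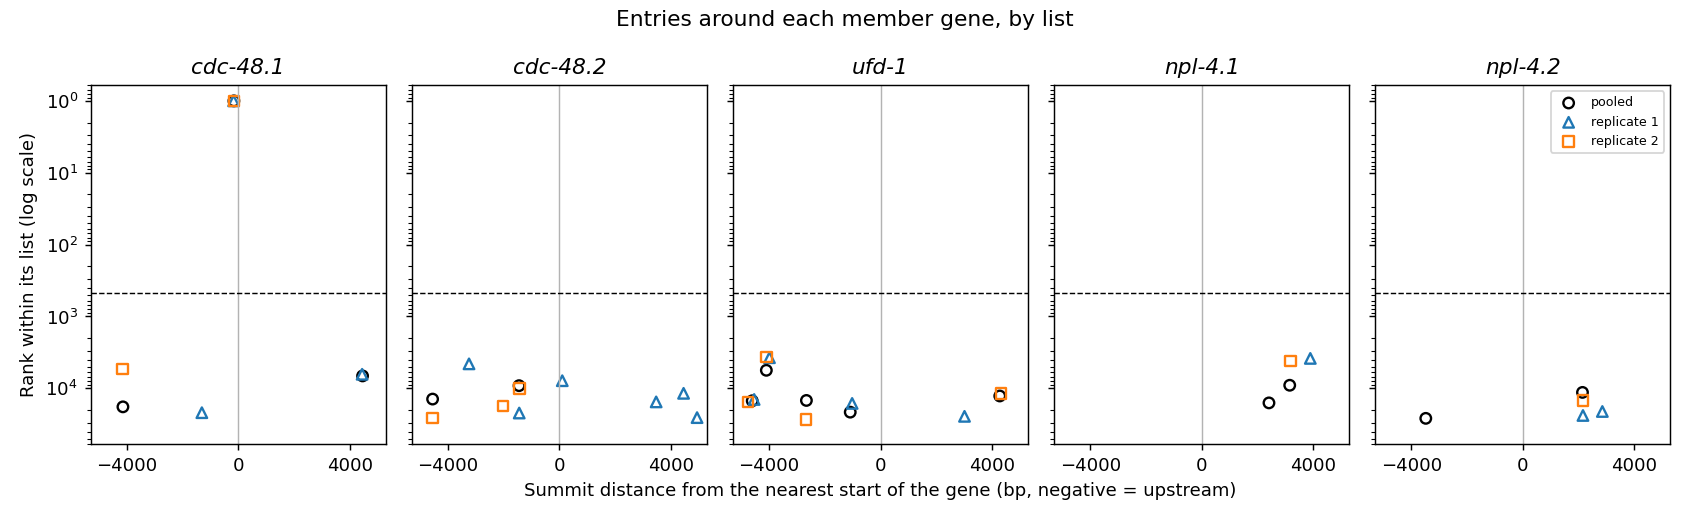
Rank within its own list (y axis, log scale, highest rank on top) against the distance of the summit from the nearest start of the gene (x axis, bp, negative values upstream) for entries of the pooled list and each replicate, in a panel per gene. The dashed line is rank 478; only the cdc-48.1 entries at 155 to 165 bp upstream stand above it.

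The cofactor genes had no optimal peak within 5000 bp. Of the 5 genes, 1 had an optimal peak, and over all protein-coding genes 5.50% had one. That count was part of the choice of genes, and nothing is read from it. All 5 genes had a pooled entry, as did 91.0% of protein-coding genes. Their 14 pooled entries numbered 3 at cdc-48.1, 2 at cdc-48.2, 5 at ufd-1, 2 at npl-4.1 and 2 at npl-4.2, where protein-coding genes had a median of 3 and 95% of them had 0 to 8. Of the 14, 1 lay within 1000 bp of a start, 9 lay in intergenic sequence and 5 in other genes, and only 3 had the named gene as the nearest protein-coding gene. The deposited −log10 q was 2.58 at the cdc-48.1 peak and only 0.0515 to 0.314 at the rest of the 14. The rest were outside the optimal list, and whether they mark binding was not tested.

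ufd-1, the gene of the substrate-binding cofactor UFD-1 (WBGene00006733, minus strand, chrIV:12329408-12330890), had its strongest pooled entry at rank 5613 with a signal of 13.8. Its summit was 4098 bp upstream and in an intron of F19B6.1, the next gene upstream on the same strand, whose model ends 85 bp from the start of ufd-1. That place was at rank 3751 in replicate 1 (signal 7.46) and rank 3681 in replicate 2 (signal 11.6), with summits 115 bp apart. It was the strongest entry in the ufd-1 window in each list, but a start of F19B6.1 lay 388 bp from it. The other pooled entries of ufd-1 ranked 12780, 14747, 14906 and 21467. The last was the nearest to ufd-1, at 1087 bp, in a coding exon of F19B6.1. At rank 14906, 4605 bp upstream, the window held CGTCTC in 2 places and GACGCA in 1, and its GC content was 51.7%. CGTCTC occurred in 36.4% of optimal windows and 6.24% of pooled windows, and GACGCA in 27.8% and 4.67%.

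npl-4.1 (WBGene00019120, plus strand, chrII:5631351-5633284) and npl-4.2 (WBGene00019121, plus strand, chrII:5622889-5624959) encode the NPL-4 subunit of the dimer. Their starts are 8.46 kb apart and their windows held 0 pooled entries in common. The strongest pooled entry of npl-4.1 was at rank 9066 (signal 11.97), 3160 bp downstream of the start and past the end of the gene, where a start of F59E12.8 was nearer, at 2409 bp. It overlapped an entry of replicate 2 at rank 4198 (signal 11.2) and none of replicate 1. Replicate 1 held a single entry in the window, at rank 3835 (signal 7.42), 3899 bp downstream in an intron of F59E12.8, which overlapped no entry of replicate 2. The strongest places of npl-4.1 in the replicates were thus different ones.

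The strongest pooled entry of npl-4.2 was at rank 11397 (signal 11.1), 2141 bp downstream, with its summit past the end of the gene. It overlapped entries of both replicates, at rank 23876 in replicate 1 (signal 3.86) and rank 14752 in replicate 2 (signal 7.52), with summits 1 bp apart. It was also the nearest to a start among the 4 pooled entries of the npl-4 genes. A second pooled entry at rank 26174, 3483 bp upstream, overlapped neither replicate. Its summit was 87 bp from a start of dhs-6, the nearest protein-coding gene. The window of this entry held CGTCTC and, overlapping it, GACGCA. Both genes have a divergent neighbour upstream, F59E12.6 at 399 bp and eif-3.L at 405 bp, and neither gap held a summit in any list.

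The npl-4 paralogs cannot be told apart as well as the cdc-48 paralogs. Their proteins are identical at 524 of 529 positions (99.1%), and 91.8% of the 36-base stretches of the npl-4.1 coding sequence occur in that of npl-4.2. Of the 36-base stretches of the strongest entries, 7.44% at npl-4.1 and 7.77% at npl-4.2 occurred more than once in the genome. The labels and release notes do not say how reads that match more than 1 place were counted, so values inside these gene bodies are uncertain.

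The 2 windows among the 14 entries that held CGTCTC together with GACGCA are shown here because they ranked low, at 14906 and 26174, whereas the cdc-48.1 peak held neither word. Over the lists the words were more frequent in optimal than in pooled windows, at 36.4% against 6.24% for CGTCTC and 27.8% against 4.67% for GACGCA. The share of windows with both words is not given, so nothing is read from these 2 windows. The nearest protein-coding starts to their summits were those of F19B6.1, at 546 bp, and dhs-6, at 87 bp. The windows are printed as above, with the words in capitals.

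ufd-1, rank 14906, chrIV:12335395-12335595: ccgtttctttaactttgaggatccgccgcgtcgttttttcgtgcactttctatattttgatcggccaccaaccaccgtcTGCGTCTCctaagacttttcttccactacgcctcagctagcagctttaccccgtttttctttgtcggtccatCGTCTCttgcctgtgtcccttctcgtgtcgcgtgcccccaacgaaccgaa
npl-4.2, rank 26174, chrII:5619306-5619506: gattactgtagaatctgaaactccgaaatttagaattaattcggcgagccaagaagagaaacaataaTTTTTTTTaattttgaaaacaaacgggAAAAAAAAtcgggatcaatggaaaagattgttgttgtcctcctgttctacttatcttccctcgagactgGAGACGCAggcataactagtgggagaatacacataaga

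Over the 14 entries, GAGAGA was found in 3 windows. There were also 3 windows with CGTCTC and 2 windows that held GACGCA. The E-box CAGGTA was in 0 of the 14, beside 4.23% of pooled windows and 1.67% of optimal ones. Its other form, CAGGTG, was in 1 of the 14, beside 3.91% of pooled windows and 1.88% of optimal ones. Both forms were thus scarcer in optimal than in pooled windows. A single window, at npl-4.1, held CAGCTG, beside 3.23% of pooled windows and 5.02% of optimal ones. The single CAGGTG was at the cdc-48.1 entry of rank 6719, 4463 bp downstream of the start (signal 13.1). TTTTTTTT was in 8 of the 14, beside 28.3% of pooled windows and 15.1% of optimal ones.

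**Figure D3:**
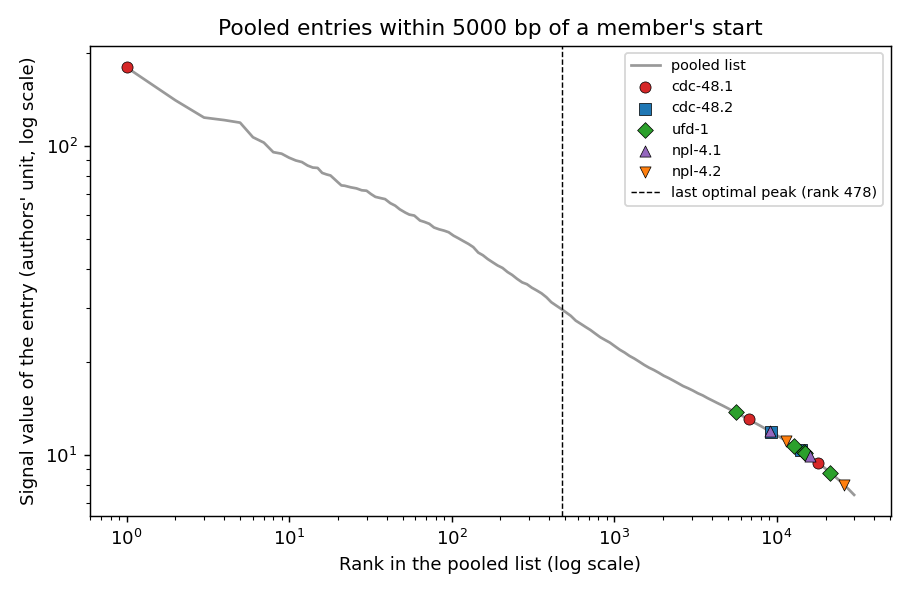
Signal value (y axis, authors' unit, log scale) against rank (x axis, log scale) over the pooled list (grey line), with the pooled entries of each gene as symbols. The cdc-48.1 peak is at rank 1 with a signal of 179.6, the other 13 entries lie between ranks 5613 and 26174, and the dashed line marks the last optimal peak at rank 478.

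By the strongest pooled entry, the order of the genes was cdc-48.1 (rank 1), ufd-1 (5613), npl-4.1 (9066), cdc-48.2 (9185) and npl-4.2 (11397). Each replicate gave that order too, but it depended on the window and the assignment. With a window of 10000 bp cdc-48.2 was at rank 2299, ahead of ufd-1 at 5613. With only entries nearest to the gene counted, npl-4.1 was at rank 15950, behind npl-4.2 at 11397, and cdc-48.2 and ufd-1 had no entry. cdc-48.1 was at rank 1 in each. Among all protein-coding genes, 40.3% had an entry ranked as high as that of ufd-1 or higher, 55.5% for npl-4.1, 56.03% for cdc-48.2 and 63.7% for npl-4.2. The median over the 18181 genes with a pooled entry was rank 6654. Adjacent in this order, though on different chromosomes, ufd-1 and npl-4.1 had ranks of 3751 and 3835 in replicate 1 and 3681 and 4198 in replicate 2. These differences were small beside that within cdc-48.2, whose ranks were 4567 and 10057. The best ranks of cdc-48.2 and npl-4.2 did not overlap, with npl-4.2 at 21012 and 14752. For both genes, however, these ranks came from different places in the replicates. At the place entered in both replicates, cdc-48.2 had ranks of 22080 and 10057 and npl-4.2 had 23876 and 14752. Those ranks did overlap. The rank of cdc-48.1 was the same in both replicates.

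Replicate agreement was partial over the 14 pooled entries, as it was over the whole pooled list. Of the 14 pooled entries, 5 overlapped an entry of both replicates by 1 bp or more, 7 overlapped replicate 1, 10 overlapped replicate 2 and 2 overlapped neither. Over all pooled entries, 32.0% overlapped both, 54.1% overlapped replicate 1 and 68.1% overlapped replicate 2. The counts over the 14 lie near these shares, so nothing particular to these genes is read from them. The 5 that were in both replicates were the cdc-48.1 peak, the ctns-1 side of cdc-48.2, the ufd-1 entries at ranks 5613 and 14906 and the strongest npl-4.2 entry. At the edge of the window, the outermost pooled entry counted for cdc-48.2 was 4550 bp away (rank 14115) and the nearest left out was 5059 bp away (rank 9445). For cdc-48.1 they were at 4463 bp (rank 6719) and 5746 bp (rank 7518), and for ufd-1 at 4605 bp (rank 14906) and 10698 bp (rank 6473). For npl-4.1 they were at 3160 bp (rank 9066) and 6315 bp (rank 11397), and for npl-4.2 at 3483 bp (rank 26174) and 6828 bp (rank 16869). At the other threshold, the last optimal peak had a signal of 29.6, well above the 13.8 of the strongest member entry outside the optimal list. Within 20 kb, a second optimal peak lay in an intron of mnk-1, 11248 bp from the start of cdc-48.1, at rank 169 (signal 42.6), and the other 4 genes had none.

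Other genes of the pathway were taken from a list of 22 that was drawn from knowledge of the pathway, with earlier results of these data known. It includes the related ATPase gene cdc-48.3, UBX-domain adaptors, ubiquitin ligases, shuttle factors and parts of endoplasmic reticulum-associated degradation. The genes atx-3 and cdt-1 are also in it. An optimal peak lay within 5000 bp of a start for 4 of the 22 genes (18.2%), beside 5.50% of all protein-coding genes. They were ubxn-3, ufd-2, ufd-3 and ubql-1. The median rank of the strongest pooled entry was 2375 over the 21 genes with one, beside 6654 over all genes with one, and 15 of the 21 ranked above that median. sel-1 had no pooled entry. These are counts, with no test.

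ufd-3, whose human counterpart PLAA binds ubiquitin and VCP, had its peak 139 bp upstream of a start, at rank 414 (signal 31.2). The replicates differed there, with rank 161 in replicate 1 and rank 7077 in replicate 2. ufd-2 encodes a ubiquitin chain elongation factor. Its peak lay 335 bp upstream at rank 457 (signal 30.1), and overlapped entries at rank 2270 in replicate 1 and rank 319 in replicate 2. ubxn-3, the FAF1-type UBX adaptor, had a peak at rank 212 (signal 39.9), 1322 bp downstream of its nearest start and 181 bp from F48A11.4, with ranks of 1144 and 155 in the replicates. The peak of ubql-1, a ubiquilin gene, lay 478 bp upstream at rank 459 (signal 30.1), over the non-coding RNA genes VF15C11L.1 and VF15C11L.2, with ranks of 2666 and 392. Each of these 4 peaks overlapped an entry among the 478 highest ranked of 1 replicate only. The share of all optimal peaks for which that was so is not given here, so nothing is read from it.

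The next strongest of the list were sel-11, the HRD1-type ubiquitin ligase gene, at rank 1024 (2711 bp upstream), and ubxn-2, a UBX adaptor of the p47 type, at rank 1154 (151 bp upstream). Neither was an optimal peak. In single replicates, 1 of the 22 genes had an entry among the 478 highest ranked of replicate 1 (5.56% of all protein-coding genes did) and 3 had one in replicate 2 (5.23%). Both replicates had such an entry at 2.86% of all protein-coding genes, cdc-48.1 among them. cdc-48.3, the more distant ATPase of the family, had its strongest pooled entry at rank 7854, 955 bp downstream of its start.

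**Figure D4:**
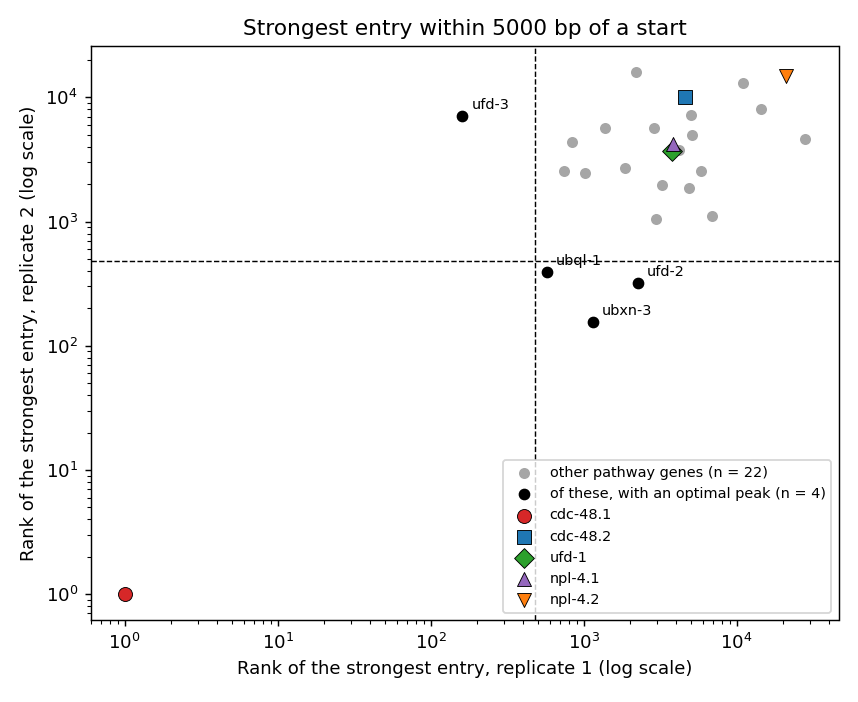
Rank of the strongest entry within 5000 bp of a start in replicate 1 (x axis, log scale) and replicate 2 (y axis, log scale) for the 5 genes (coloured symbols) and the 22 other pathway genes (grey, black with an optimal peak). cdc-48.1, chosen for its rank, is at rank 1 on both axes, and no other gene shown is within the first 478 (dashed lines) on both. Over all protein-coding genes, 2.86% are.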

How the data were processed

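Chromatin immunoprecipitation and sequencing of eGFP-tagged ZAG-1 was done in 2 biological replicates of L1 larvae, per the labels. The authors deposited lists of 30000 entries for each replicate and for both pooled, and an optimal list thresholded on the irreproducible discovery rate, per the release notes among the deposited files. Each entry has a signal value, a score whose formula is not given, and a −log10 q, both as deposited by the authors. The labels and release notes state no aligner, peak caller, version, threshold or read depth.

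Entries were ranked by signal within each ce11 list. Summits were set against starts of protein-coding transcripts in Ensembl release 115 (WBcel235, the same build as ce11), within 5000 bp. No coordinates were converted, and ce10 lists served only for their highest entry. Overlap meant 1 bp or more. Words were counted on both strands in windows of 201 bp of the RefSeq WBcel235 genome. Proteins were translated from annotated coding sequences and aligned with Biopython 1.88 (global, BLOSUM62, gap penalties 10 and 0.5). Python 3.11.15 and pandas 2.3.3 were used, and the placing of entries was tested on simulated data.

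The genes, lists and words were chosen with earlier results of these data known, and no significance test was made. Named genes were the 5 genes, pathway genes with an optimal peak or among the 6 of best pooled rank, genes nearest the strongest entries and optimal peaks, the 4 most like cdc-48.1, and zag-1 and unc-119. Named outside that rule, after their values were seen, were cdc-48.3, sel-1, atx-3, cdt-1, mnk-1, C06A1.6, F59E12.6, eif-3.L, ulp-4, C41C4.20 and dhs-6. Alternatives changed the window, the starts counted, the assignment, the position of an entry, the ranking value, the list and the overlap rule.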

Additional observations from a re-analysis of the deposited data

How the results depend on the processing

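Of 112 values under alternatives to 16 results, 88 kept the reported value or stayed within the spread between replicates (counts within 1.5 times). Settings that left a gene without an entry gave no rank and are not among the 112. The spread was the SD of the 2 replicate ranks, which also served as alternatives, so it was widest where the replicates differed most. The 88 include optimal counts that stayed at 0. The rank of cdc-48.1 was 1 and its optimal count 1 in every alternative run, and the optimal counts of the other 4 genes stayed at 0 (for the upper 239 optimal peaks, a part of the 478, by construction). The gene cdc-48.1 was chosen for that rank. With the summit 155 bp from its start, the nearest one, the changes of window, starts, assignment or position could not alter either value. Nor could taking the upper 239 optimal peaks alter its count. The single optimal peak was found in both replicates under each overlap rule. With a window of 1000 bp, pooled entries numbered 1 at cdc-48.1 and 0 at cdc-48.2, ufd-1, npl-4.1 and npl-4.2, so that no rank could be given for those 4. With 10000 bp there were 7 at cdc-48.1 and 6 at cdc-48.2, whose strongest entry was then at rank 2299. Counting only entries whose nearest protein-coding start was that of the gene left 1 at cdc-48.1, 1 at npl-4.1 (then rank 15950), 1 at npl-4.2 and 0 at cdc-48.2 and ufd-1, so the ranks reported for cdc-48.2, ufd-1 and npl-4.1 belong to entries nearer to other genes. Without a replicate, the strongest ranks were 4567 to 10057 at cdc-48.2, 3681 to 3751 at ufd-1, 3835 to 4198 at npl-4.1 and 14752 to 21012 at npl-4.2. The number of entries was 3 to 6 at cdc-48.2, 1 at npl-4.1 in either case and 1 to 2 at npl-4.2. No paired analysis was possible because there was 1 group and no test. Read depth is not given, so no counting error could be set beside a signal.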
